A study of Camellia sinensis with 9 samples.

Results

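The mature 3p arms of the miR166 family were described here in the tea plant, Camellia sinensis, across its flower, root and leaf. They were taken by name from the deposited count table, which lists 371 miRNAs with 341 distinct sequences. A total of 6 rows belonged to them, csn-miR166a_3p, csn-miR166b_3p, csn-miR166c_3p, csn-miR166h_3p, csn-miR166l_3p and csn-MIR166o_3p. Rows of the same sequence held the same counts and were joined, which left 3 sequences. These are called miR166a/b, miR166h/o and miR166c/l below, and other miRNAs are named without the species prefix.

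Small RNA was sequenced from 3 flower libraries (flower1, flower2, flower45), 3 root libraries (root13, root23, root33) and 3 leaf libraries (leaf1, leaf23, leaf41), all from plants without treatment. The labels name neither cultivar nor age. Nor do they tell whether different plants were sampled, and each p-value below reflects only how far these libraries differ, which may be technical. The table holds miRNAs only, so the organs could not be checked against marker genes.

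In plants, miR166 pairs almost fully with the transcripts of class III HD-ZIP transcription factors and directs their cleavage. In Arabidopsis thaliana this confines HD-ZIP III activity to the upper side of the leaf and to the inner stele of the root, where it patterns the xylem. The 3p arm of the hairpin is the guide strand loaded into Argonaute, while the 5p arm is the passenger strand and is mostly degraded.

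The 3 sequences are shown because they differ by few bases and yet varied differently among the organs. They are written 5′ to 3′ as the deposited table spells them with U, with the seed (bases 2 to 8) in capitals:
miR166a/b: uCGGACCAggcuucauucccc
miR166h/o: uCGGACCAggcuucauuccuc
miR166c/l: uCUCGGACcaggcuucauucu

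All 3 sequences are 21 bases long and share a run of 18 bases, which no other sequence in the table holds. Counted from the 5′ end of miR166a/b, miR166h/o carries the single substitution C20U and therefore has the same seed, CGGACCA. The frame of miR166c/l is shifted: it starts 2 bases earlier, matches miR166a/b at 18 of 19 aligned positions with the substitution C19U, and so has the seed CUCGGAC. The miR166h/o sequence is also listed as MIR845h-3p with the same counts, so its reads cannot be assigned to one locus or family name. Whether reads with a mismatch were accepted in counting is not given in the sources used here.

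Counting each sequence once, the libraries held 876770 to 1073284 counts in flower, 369605 to 662023 in root and 476517 to 530334 in leaf. The Wilson 95% intervals of the shares below were within 0.161 percentage points of the value or narrower, and they cover counting error only. Across sequences, log2 CPM (counts scaled to a common library size) correlated at r = 0.94 to 0.963 between flower libraries, 0.93 to 0.956 between root libraries and 0.95 between leaf1 and leaf23. The library leaf41 stood apart, at 0.777 and 0.812 with the other leaf libraries, so the fold changes with leaf are also given without it.

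The dominant sequence, miR166a/b, ranked first in all 9 libraries. It had 338982, 489121 and 345022 counts in flower1, flower2 and flower45, 158547, 354456 and 263496 in root13, root23 and root33, and 152402, 184036 and 184577 in leaf1, leaf23 and leaf41. As a share of the library this was 40.6% ± 4.48 (SD, n = 3) in flower, 49.4% ± 5.71 in root and 34.9% ± 3.72 in leaf. By share, every root library lay above every leaf library, while flower overlapped with both. In bulk RNA a lower level can mean fewer cells with the miRNA or less of it per cell, and these cannot be told apart.

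miR166h/o was a flower-rich and leaf-poor sequence. Its counts were 45189, 43566 and 39275 in flower1, flower2 and flower45, 15424, 17533 and 16174 in root13, root23 and root33, and 2771, 2743 and 10808 in leaf1, leaf23 and leaf41. Its share was 4.48% ± 0.43 (SD, n = 3) in flower, 3.33% ± 0.77 in root and 1.06% ± 0.85 in leaf. The lowest flower library (4.06%) and the lowest root library (2.65%) both stood above the highest leaf library, leaf41 (2.04%), and leaf1 and leaf23 lay at 0.567% and 0.576%. By share, flower and root overlapped, through root13 at 4.17%. The sequence ranked 5 or 6 in flower and root, 16 in leaf1, 13 in leaf23 and 10 in leaf41.

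miR166c/l had the other order, with root above leaf and leaf above flower. Its counts were 10252, 8221 and 11640 in flower1, flower2 and flower45, 25068, 68956 and 34857 in root13, root23 and root33, and 20323, 21077 and 23212 in leaf1, leaf23 and leaf41. Its share was 1.07% ± 0.28 (SD, n = 3) in flower, 8.02% ± 2.08 in root and 4.32% ± 0.14 in leaf, and no libraries of different organs overlapped. The leaf libraries, leaf41 included, agreed within 4.16% to 4.42%, whereas root23 (10.4%) stood above root13 (6.78%) and root33 (6.85%). It ranked 2 or 3 in root, 6 or 7 in leaf, and 11 to 15 in flower.

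**Figure D1:**
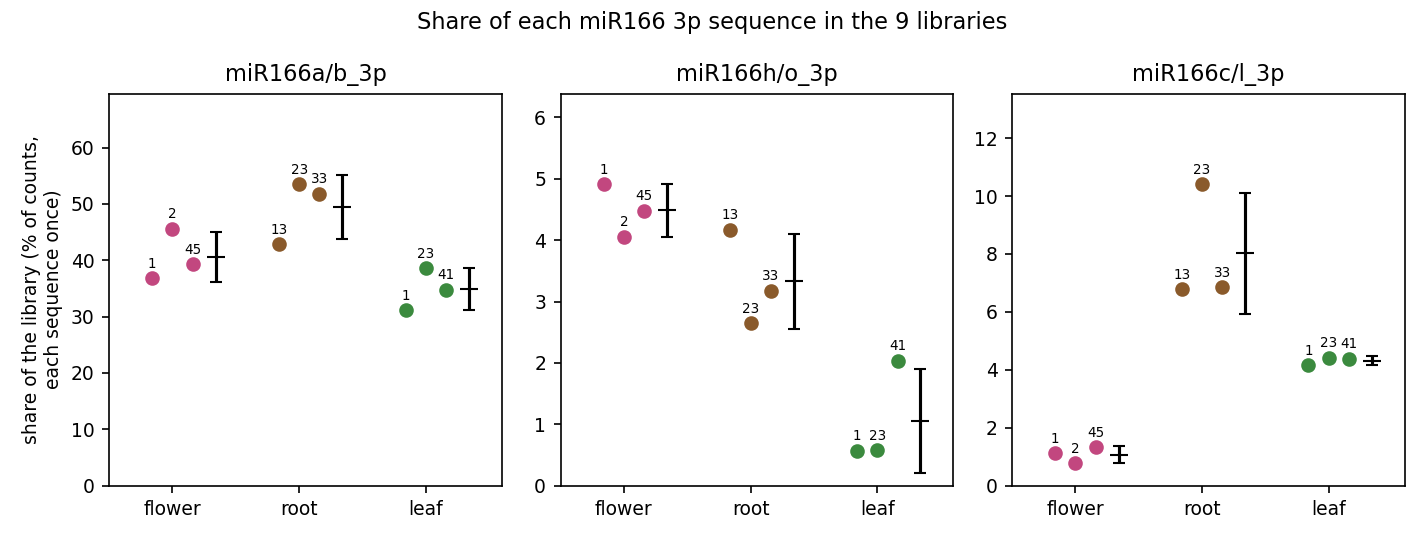
Share of each miR166 3p sequence (y axis, % of the counts of a library with each sequence counted once) in flower, root and leaf. Points are libraries with the number from their name, bars give the mean ± SD (n = 3), and the y axes differ between panels. miR166h/o has its lowest values in leaf, with leaf41 at 2.04% above the other leaf libraries, and miR166c/l has its lowest in flower, at 0.766% to 1.33%.

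The 3 sequences together took 42.9%, 50.4% and 45.2% of the counts in flower1, flower2 and flower45, 53.9%, 66.6% and 61.8% in root13, root23 and root33, and 35.9%, 43.6% and 41.2% in leaf1, leaf23 and leaf41. By share, root stood above flower and leaf without overlap, and flower and leaf overlapped. The order of flower and root depended on the denominator: the log2 ratio of flower to root was -0.39 by share and 0.58 over the authors' divisor. In CPM, in the authors' unit and in counts, root overlapped with both other organs, and every flower library stood above every leaf library. Within this sum, miR166a/b made up 87.8% ± 2.32 (SD, n = 3, as for the shares that follow) in flower, 81.3% ± 2.20 in root and 86.6% ± 2.06 in leaf. The next sequence was miR166h/o in flower, at 9.81% ± 1.70 against 2.35% ± 0.74 for miR166c/l. It was miR166c/l in root, at 13.1% ± 2.32 against 5.62% ± 1.93 for miR166h/o, and in leaf, at 10.8% ± 0.73 against 2.61% ± 2.02. That exchange of second place held in each of the 9 libraries, with 3.37 to 5.30 counts of miR166h/o per count of miR166c/l in flower, 0.254 to 0.615 in root and 0.13 to 0.466 in leaf.

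Ratios within a library need no scaling, so both minor sequences were set against miR166a/b. For every 100 counts of miR166a/b there were 13.3, 8.91 and 11.4 of miR166h/o in flower1, flower2 and flower45, 9.73, 4.95 and 6.14 in root13, root23 and root33, and 1.82, 1.49 and 5.86 in leaf1, leaf23 and leaf41. Flower lay above leaf without overlap, and root overlapped with both. The mean log2 ratio (0.5 added to each count) was -3.18 ± 0.29 (SD, n = 3) in flower, -3.91 ± 0.50 in root and -5.31 ± 1.07 in leaf, and differed among organs by an exact permutation test of the F statistic over the 9 libraries (p = 0.0464). Without leaf41 the exact p was 0.00714, but it was 0.05 to 0.0893 without root13, root33, flower1, flower2, flower45 or leaf23 in turn.

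Against 100 counts of miR166a/b, miR166c/l had 3.02, 1.68 and 3.37 in flower1, flower2 and flower45, 15.8, 19.5 and 13.2 in root13, root23 and root33, and 13.3, 11.5 and 12.6 in leaf1, leaf23 and leaf41. All flower libraries lay below all others, and root and leaf overlapped narrowly, at root33 and leaf1. The mean log2 ratio was -5.28 ± 0.54 (SD, n = 3) in flower, -2.65 ± 0.28 in root and -3.01 ± 0.11 in leaf (exact permutation test, p = 0.00714, and 0.00357 to 0.0107 with any 1 library left out). These were the only 2 ratio tests, their p-values were not adjusted, and the smallest p that 9 libraries allow is 0.00357.

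**Figure D2:**
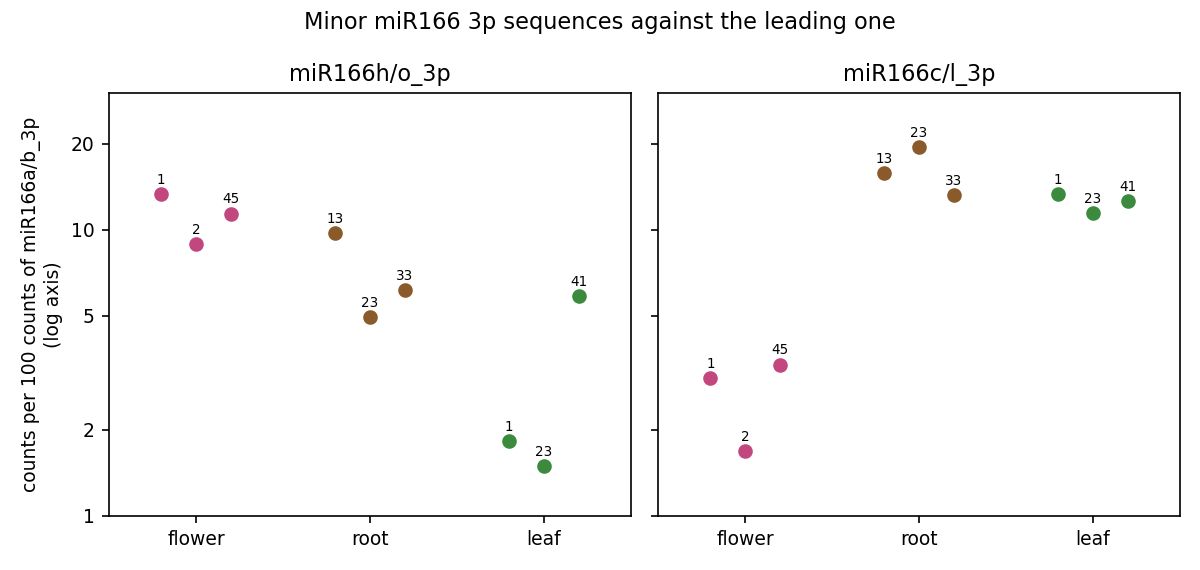
Counts of miR166h/o and miR166c/l per 100 counts of miR166a/b in the same library (y axis, log scale), by organ, with the library number beside each point. In flower miR166h/o stands at 8.91 to 13.3 and miR166c/l at 1.68 to 3.37. The order is turned round in every root library, at 4.95 to 9.73 and 13.2 to 19.5. It is also turned round in every leaf library, at 1.49 to 5.86 and 11.5 to 13.3.

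Differences between organs were tested with edgeR's quasi-likelihood test on 132 distinct sequences, with scaling by the trimmed mean of M values (TMM) and Benjamini-Hochberg adjustment over all of them at 0.05. All 3 miR166 3p sequences passed the low-count filter. The scaling choice moved the median log2 fold change of all tested sequences, over 5 scalings, between -0.52 and 0.46 for flower against leaf, between -0.34 and 0.64 for flower against root, and between 0.00285 and 0.58 for root against leaf. Each change is therefore also given relative to that median.

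Between flower and leaf, miR166h/o rose and miR166c/l fell in flower. That is 1 of the 3 sequences higher, where 16.7% of all tested sequences were called higher in flower, and 1 lower, where 18.9% were called lower. miR166h/o stood at 52453 ± 2678 CPM in flower and 9346 ± 6834 CPM in leaf (SD of 3 libraries each), 5.61 times as much in flower (log2 2.49 ± 0.47 SE, edgeR adjusted p = 0.00411). Relative to the median of all sequences its log2 fold change was 2.56 to 2.77 over the 5 scalings. Without leaf41 it was 3.42 and without leaf1 1.87 on the absolute scale, and it was called under each of the 17 other settings. In the same comparison miR166c/l stood at 12508 ± 3250 CPM in flower and 39368 ± 2046 CPM in leaf (log2 -1.65 ± 0.38 SE, edgeR adjusted p = 0.00806), and at -1.53 to -1.49 relative to the median. It too was called under all 17, with log2 values of -2.59 to -1.07. It was -1.56 without leaf41 and -2.51 without flower45. miR166a/b had 477701 ± 73327 CPM in flower and 317549 ± 33401 CPM in leaf and did not pass the test (log2 0.59 ± 0.27 SE, edgeR adjusted p = 0.125). It was 0.67 without leaf41. Its sign turned under 5 settings, while relative to the median it stood at 0.71 to 0.74 over the 5 scalings.

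Between flower and root, miR166c/l fell in flower, by 6.35-fold. It had 12508 ± 3250 CPM in flower and 79415 ± 36824 CPM in root (SD, n = 3 each; log2 -2.67 ± 0.39 SE, edgeR adjusted p = 0.000666). The call was made under all 17 other settings (log2 -2.91 to -2.04), and the value relative to the median was -2.69 to -2.57. Thus 1 of 3 sequences was lower, where 23.5% of all tested sequences were called lower in flower and 15.9% higher. miR166h/o had 52453 ± 2678 CPM in flower and 30851 ± 3722 CPM in root, without overlap, and missed the threshold (log2 0.77 ± 0.45 SE, edgeR adjusted p = 0.195). Relative to the median it stood at 0.74 to 0.82. Its log2 fold change was above 0 under all 17 settings and called under 7, among them the DESeq2 size factors (log2 1.04, edgeR adjusted p = 0.0499) and without flower2 (1.15) or leaf41 (0.97). miR166a/b stood at 477701 ± 73327 CPM in flower and 486598 ± 176759 CPM in root (log2 -0.03 ± 0.27 SE, edgeR adjusted p = 0.938). Its sign changed with the scaling, and relative to the median it lay between 0 and 0.05.

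Between root and leaf, 1 of 3 sequences was called, miR166h/o, which was higher in root, where 18.2% of all tested sequences were called higher and 11.4% lower. It had 30851 ± 3722 CPM in root and 9346 ± 6834 CPM in leaf (SD, n = 3 each; log2 1.72 ± 0.46 SE, edgeR adjusted p = 0.0206), and its value relative to the median was 1.06 to 1.38 over the 5 scalings. The log2 fold change was 2.45 without leaf41. The call was lost without root13 (1.63), root23 (1.76), flower1 (0.93), flower2 (0.93), flower45 (0.92), leaf1 (0.69) or leaf23 (1.27), with edgeR adjusted p of 0.0505 to 0.187. It was also lost with no low-count filter (0.97), with unjoined rows (0.92) and with the 6 libraries alone (0.89), which makes 10 of the 17 settings. With 1 library left out, the median of all sequences itself moved between -0.64 and 0.82, and relative to it miR166h/o stood at 0.96 to 1.63. miR166c/l had 79415 ± 36824 CPM in root and 39368 ± 2046 CPM in leaf, without overlap (log2 1.01 ± 0.37 SE, edgeR adjusted p = 0.0579). Relative to the median it stood at 0.35 to 0.50 over the 5 scalings. With the 6 libraries fitted alone its log2 fold change was -0.06, which was 0.29 relative to the median of that fit. Without leaf41 the log2 fold change was 0.81. miR166a/b had 486598 ± 176759 CPM in root and 317549 ± 33401 CPM in leaf (log2 0.62 ± 0.27 SE, edgeR adjusted p = 0.101). It lay between -0.03 and 0.09 relative to the median, and its log2 fold change was 0.45 without leaf41. In CPM, root13 stood at 283713 for miR166a/b, below the 607325 of root23 and the 568757 of root33, and its TMM factor was 1.51, against 0.882 and 0.911. Without root13, miR166a/b (log2 0.72, edgeR adjusted p = 0.0203) and miR166c/l (log2 1.08, edgeR adjusted p = 0.0327) were called higher in root. Both were also called with library totals (log2 0.50 and 0.89). Relative to the median of each fit, miR166a/b stood at 0.22 without root13 and at -0.03 with library totals. There miR166c/l stood at 0.59 and 0.35.

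**Figure D3:**
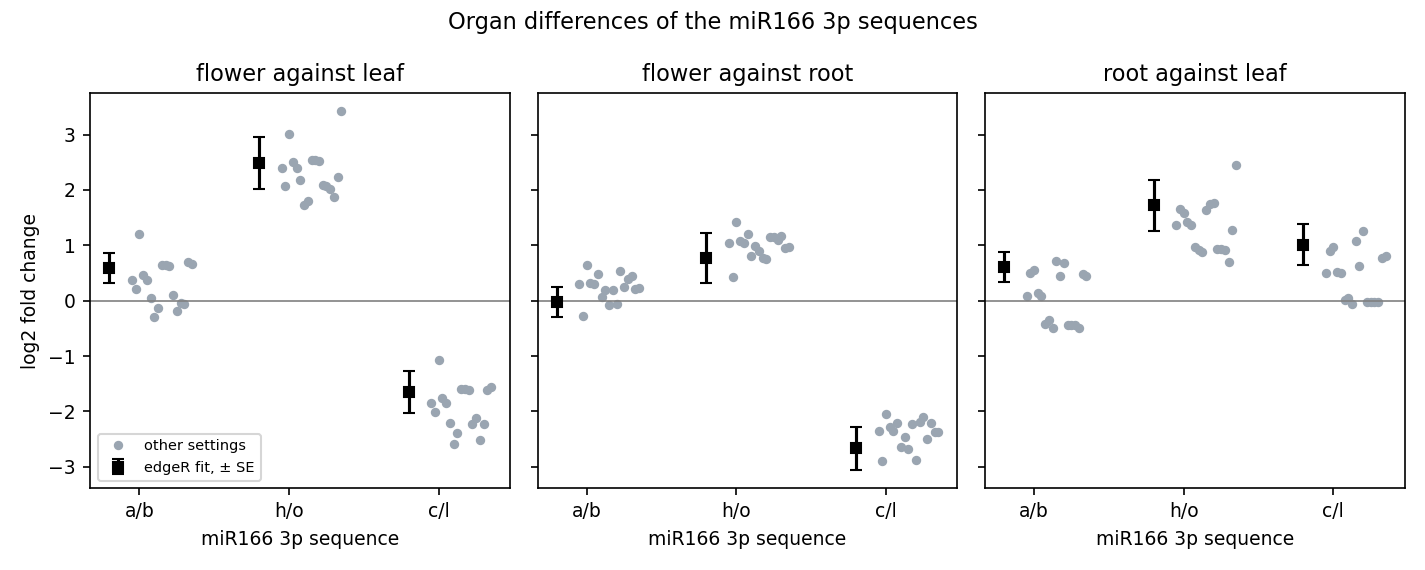
Log2 fold change (y axis) of miR166a/b, miR166h/o and miR166c/l in 3 comparisons of organs, positive where the first-named organ is higher. Black squares with bars are the edgeR fit ± SE and grey points the 17 other settings. miR166c/l lies below 0 in every setting of both comparisons with flower, miR166h/o lies above 0 in every setting of all 3, and miR166a/b crosses 0 in all 3.

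The opposite 5p arms of the same names were far rarer. The 5p arm of miR166c and miR166l was the most frequent of these, with 439 to 734 counts in flower, 516 to 1072 in root and 274 to 927 in leaf. Its 3p arm was 14.0, 14.4 and 26.5 times as frequent in flower1, flower2 and flower45, 43.6, 134 and 32.5 times in root13, root23 and root33, and 21.9, 50.3 and 84.7 times in leaf1, leaf23 and leaf41. Root lay above flower without overlap, and leaf overlapped with both. By edgeR's test this 5p sequence was called in no comparison (log2 -0.53 ± 0.68 SE for flower against leaf, -0.99 ± 0.69 for flower against root, 0.45 ± 0.68 for root against leaf, adjusted p = 0.271 to 0.57).

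The 5p arm of miR166h and MIR166o had 123 to 216 counts in flower, 0 to 21 in root and 19 to 26 in leaf. It was called higher in flower than in root (log2 3.23 ± 1.13 SE, edgeR adjusted p = 0.0451), and had log2 2.28 ± 1.08 SE for flower against leaf (adjusted p = 0.129). It was thus scarcer in root than in flower, by a call near the threshold. Its 3p arm had the same sign there and did not pass the test (log2 0.77 ± 0.45 SE, edgeR adjusted p = 0.195). The difference between the arms was not tested. The 5p arm of miR166a and miR166b had 14 to 18 counts in flower, 0 to 4 in root and 0 to 6 in leaf, beside at least 152402 counts of the 3p arm. In root13 neither of these 5p arms had a count, which allows a share of up to 0.000812% of its 369605 counts, and that of miR166a and miR166b also had none in leaf23 (up to 0.00063%). Summed over all 9 listed 5p sequences of the family, there were 70.9 to 128 counts of the 3 mature sequences per 5p count in flower, 158 to 362 in root and 72.1 to 114 in leaf. Most of the 5p counts in flower came from miR166f_5p, which had 2745 to 3967 counts in flower, 181 to 862 in root and 1281 to 1619 in leaf.

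**Figure D4:**
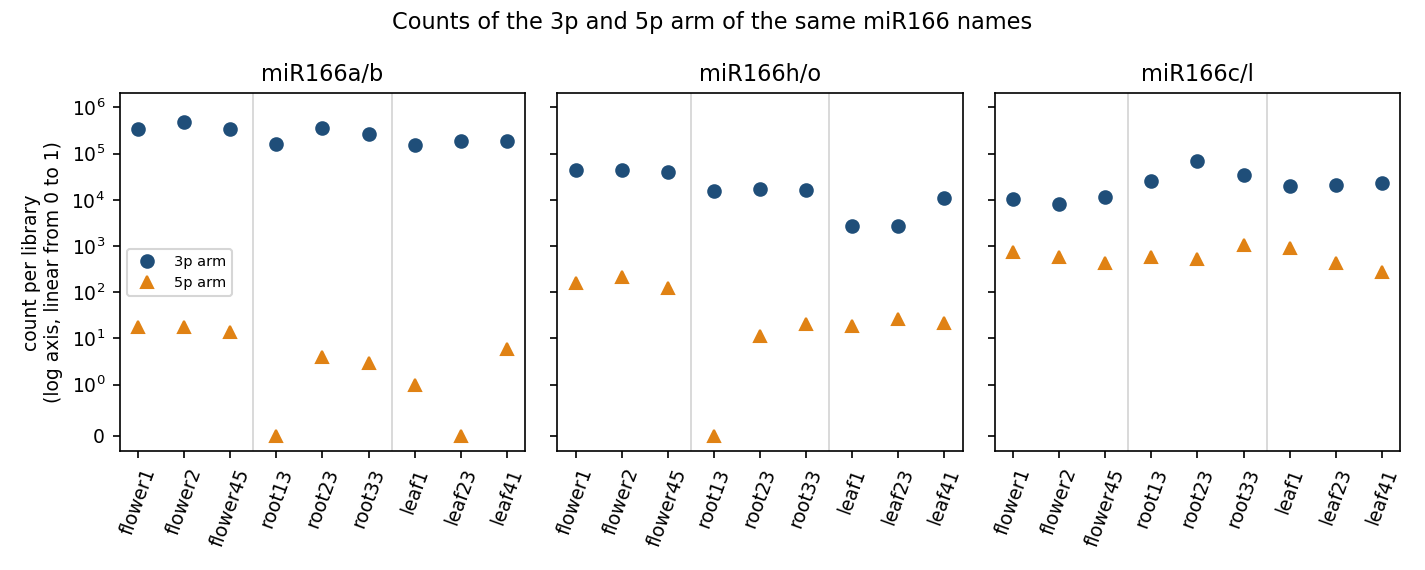
Counts (y axis, log scale above 1 and linear from 0 to 1) of the 3p arm (circles) and of the 5p arm of the same names (triangles) in each library, in the order flower, root, leaf. The arms are closest for miR166c/l, at 14.0 to 134 counts of 3p per count of 5p, and the 5p arm of miR166a/b never exceeds 18 counts.

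Among the 10 most abundant sequences of the table, by the mean of the organ shares, miR166a/b ranked 1 (41.6%), miR166c/l 5 (4.47%) and miR166h/o 9 (2.96%). Rank 2, the sequence shared by miR159a_3p and miR159b_5p, reached 5.92% ± 1.51 (SD, n = 3) in flower, 7.32% ± 0.69 in root and 13.7% ± 6.76 in leaf.

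The sequences whose log2 CPM followed each of the 3 most closely over the 9 libraries were found by Pearson's r, given as a description, since libraries of one organ are alike for many miRNAs. For miR166h/o they were MIR167n_3p (r = 0.976), miR169d_5p (0.951) and miR396d_3p (0.928), all of them rare. MIR167n_3p had 48 to 73 counts in flower, 18 to 39 in root and 0 to 14 in leaf, the 14 in leaf41. Those closest to miR166c/l were the sequence of MIR156l_3p and miR156f_3p (0.929), MIR7122a_5p (0.90) and miR156a_3p (0.884). MIR7122a_5p had 473 to 1811 counts in flower, 3339 to 5513 in root and 1878 to 3939 in leaf. No sequence followed miR166a/b as closely, with MIR169g_3p (0.759), miR169d_3p (0.676) and the sequence of miR167c_5p and miR167h_5p (0.662) the nearest. Among themselves, miR166a/b and miR166h/o correlated at 0.573, miR166a/b and miR166c/l at 0.025, and miR166h/o and miR166c/l at -0.38.

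Other families with a known part in organ polarity and boundaries were miR390, which starts the small RNAs that restrain auxin response factor genes on the upper leaf side, miR160 with auxin response factor targets, miR164 with NAC targets, miR319 with TCP targets and miR396 with growth-regulating factor targets. No row was named miR165. Of 41 distinct sequences in these families, with both arms counted, 17 were tested, 8 of them of miR396. Against leaf, 7 of the 17 were higher and 1 lower in flower, where 16.7% of all tested sequences were called higher and 18.9% lower. The median log2 fold change of the 17 was 1.39 beside -0.14 for all tested sequences. The higher ones were miR390a_5p, miR390b_3p, miR390b_5p, miR319a_3p, miR396d_3p, the sequence of MIR396g-3p and miR396a_3p, and that of miR396h_3p, also listed as miR403a_3p. All miR396 sequences among these are named as 3p arms, as is miR390b_3p. Both arms were counted alike, so the counts and the median do not describe the target-pairing arms alone. The lower one was the sequence of MIR396r_5p and miR396a_5p (log2 -2.28 ± 0.73 SE, edgeR adjusted p = 0.0343). The largest change was that of miR390b_5p (log2 8.28 ± 0.67 SE, edgeR adjusted p = 2e-05).

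For flower against root, 4 of the 17 were higher (miR390a_5p, miR390b_3p, miR390b_5p and the sequence of miR396h_3p and miR403a_3p). That of MIR396r_5p and miR396a_5p was again lower, and the median of the 17 was 1.11 beside -0.05 for all. Of all tested sequences, 15.9% were called higher in flower and 23.5% lower. In root against leaf 4 of the 17 were called, all of miR390 and higher in root (median 1.85 beside 0.58 for all). Of all tested sequences, 18.2% were called higher in root and 11.4% lower. The counts in these families depended on the libraries and the fit. Without flower1, flower2 or flower45 in turn, 2 of the 17 or 18 then tested were higher and 3 lower in root. The medians were then 0.56 to 0.80, beside -0.64 to -0.61 for all tested sequences. In those fits 11 or 12 of all 141 to 143 tested sequences were called higher and 37 lower. Without leaf1, 1 of 18 was higher and 1 lower, beside 9 and 26 of all 141 tested. With the 6 libraries alone 1 of 14 was higher and 2 lower, beside 10 and 27 of all 117 tested. miR390b_5p was 4.32 ± 0.56 SE higher on the log2 scale in root than in leaf (edgeR adjusted p = 0.000645). Without leaf41, 18 sequences of these families were tested, among 145 in all. For flower against leaf 8 of them were called, all higher in flower, beside 38 higher and 28 lower of all 145. For flower against root 6 were higher and 2 lower, beside 34 and 39 of all 145. For root against leaf 9 were higher and 2 lower, beside 51 and 29 of all 145. Without leaf1, 7 of 18 were higher and 2 lower for flower against root, beside 37 and 35 of all 141 tested. The 3 miR166 sequences ranged from -1.65 to 2.49 for flower against leaf and from 0.62 to 1.72 for root against leaf.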

How the data were processed

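The deposited table holds, per the file headers, 1 count column and 1 normalised score column (RPTM) per library. The counts are whole numbers that the authors did not normalise. The score is rounded by the authors and equals the count divided by 1 constant per library (all 371 rows within 1 of it). The header does not define its unit, so it was used only through that constant, as an alternative library size. Libraries were made from total RNA after removal of ribosomal RNA, per the labels' protocols. The sources used here do not name the genome build or the tools for trimming, alignment and counting. The 1 blank row was left out.

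Rows with identical sequence (U and T equated) were joined, so each read counted once. The steps were edgeR 4.0.16 in R 4.3.3 with glmQLFit and glmQLFTest, TMM, filterByExpr by organ, all 9 libraries and organ as the only factor. The 132 sequences kept held at least 99.96% of the counts of each library. The SE of a log2 fold change is its size over the root of its F statistic. Likeness used log2 CPM with a prior count of 2. The fit was checked on simulated counts with changes larger than those of the miR166 sequences, so the check does not cover smaller ones. The choice between scalings was not checked there. DESeq2 1.42.0, other scalings, no filter, unjoined rows, 6 libraries alone and each library left out made up the 17 alternatives.

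Members, lists and tests were chosen with earlier results of these data known. Named beside the members were other miR166 rows, the 10 most abundant sequences, the 3 most similar to each member, and called sequences of the polarity families.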

Additional observations from a re-analysis of the deposited data

How the results depend on the processing

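No paired analysis was possible because the organs share at most 1 number in the library names and the labels do not say what it marks. The calls of miR166c/l in both comparisons with flower and of miR166h/o for flower against leaf were made under all 17 alternatives. For flower against root, 2 miR166 3p sequences in place of 1 were called with the DESeq2 size factors, the authors' divisor, no low-count filter or the 6 libraries alone, and 1 to 2 with a library left out. For root against leaf, 3 were called with library totals and 0 with no filter, with unjoined rows or with the 6 libraries alone (at an unadjusted p under 0.05, edgeR gave 1, 1 and 0), while DESeq2 called 1 and leaving out a library gave 0 to 2. All sequences called for root against leaf numbered 39, but 68 with DESeq2, 65 with no filter, and 24 (without root23) to 80 (without leaf41) with a library left out. Their split of 24 higher and 15 lower was 23 and 27 with the DESeq2 size factors and 22 and 26 with TMM on the sequences of no miR166 row. With the authors' divisor, the split for flower against leaf was 30 and 21 in place of 22 and 25, and for flower against root 37 and 29 in place of 21 and 31.

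The log2 fold change of miR166a/b for flower against leaf turned to -0.29 with unjoined rows and -0.14 with the 6 libraries alone. With a library left out it ran from -0.19 to 0.70. Relative to the median of all sequences in the same fit, these values were 0.78, 0.51 and 0.30 to 0.91. This sequence was called with the authors' divisor (1.20) and without root13 (0.64). For flower against root its log2 fold change turned to 0.30 with the DESeq2 size factors and with DESeq2, and to 0.64 with the authors' divisor. It was 0.32 with TMM on the sequences of no miR166 row, 0.48 with no filter, 0.063 with unjoined rows and 0.19 with the 6 libraries. With a library left out it ran from -0.072 to 0.54. Relative to the median it was 0.46 with no filter, 0 to 0.16 under the others named, and -0.24 to 0.16 with a library left out. For root against leaf it turned to -0.42 with no filter, -0.36 with unjoined rows and -0.49 with the 6 libraries, and ran from -0.50 to 0.72. Relative to the median these values were -0.28, 0, -0.14 and -0.37 to 0.52. The log2 fold change of miR166c/l for root against leaf was -0.063 with the 6 libraries and ran from -0.023 to 1.25. Relative to the median these were 0.29 and -0.01 to 1.10. The causes were not tested.

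The log2 ratio of the summed shares was 0.20 for flower against leaf, -0.39 for flower against root and 0.59 for root against leaf. It was 1.16 and 0.58 for the comparisons with flower over the authors' divisor, and 0.35, -0.86 and 1.21 over the sequences of no miR166 row. The log2 ratio of miR166h/o to miR166a/b differed by 1.76 to 2.75 for flower against leaf, 0.52 to 1.005 for flower against root and 1.03 to 2.02 for root against leaf with a library left out.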

Other observations

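A further 3p row of the family, miR166k_3p, was not among the 6 and differs from miR166a/b by the single substitution U1G, counted from the 5′ end of miR166a/b. It had 116, 252 and 132 counts in flower1, flower2 and flower45, 196, 554 and 109 in root13, root23 and root33, and 37, 72 and 268 in leaf1, leaf23 and leaf41. There were 1941 to 2922 counts of miR166a/b for each of its counts in flower, 640 to 2417 in root and 689 to 4119 in leaf. The other sequence at 1 substitution from miR166a/b, miR166h/o, was far more frequent, with 7.50 to 11.2 counts of miR166a/b for each of its own in flower, 10.3 to 20.2 in root and 17.1 to 67.1 in leaf. Within the leaf libraries, leaf41 had the highest level of both miR166h/o and miR166k_3p relative to miR166a/b. By edgeR's test miR166k_3p was called in no comparison (adjusted p = 0.229 to 0.946).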
